A study of Caenorhabditis elegans with 2 samples.

Results

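The genes described here encode subunits of the 26S proteasome of the nematode Caenorhabditis elegans: every protein-coding gene whose name starts with pas-, pbs-, rpt- or rpn-. They number 33 of the 19973 protein-coding genes annotated on the nuclear chromosomes. The measurement was chromatin immunoprecipitation followed by sequencing (ChIP-seq) of ZTF-26, a zinc finger protein, in 2 biological replicates of 1 group, which the labels number 3 and 4. Both came from strain OP565, whose genotype is unc-119(tm4063) III with the integrated transgene wgIs565. The transgene gives ZTF-26 a GFP and FLAG tag at its C terminus, and an antibody to GFP pulled down the tagged protein with its DNA. The worms were young adults of mixed sex, taken 56 hours after they were synchronized as starved L1 larvae. Every sample thus carried the unc-119 mutation and the transgene, and the chromatin of all tissues was mixed, since whole worms were used. The promoter that drives the transgene is not given in the sources used here, and a control library was not analysed here. Peak lists hold no expression values, so no tissue could be checked against its markers.

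The 26S proteasome is the protease that degrades proteins tagged with ubiquitin. Its core particle is a barrel of stacked rings: alpha subunits (the pas genes) form the outer rings and guard the entry, and beta subunits (the pbs genes) form the inner rings and hold the cutting sites. The regulatory particle caps the barrel. Its base is a ring of ATPases (the rpt genes) that unfold the substrate, together with the scaffold and ubiquitin-binding subunits rpn-1, rpn-2, rpn-10 and rpn-13. Its lid, made mostly of the other rpn genes, removes the ubiquitin chain. In the worm the transcription factor SKN-1 is a known activator of proteasome subunit genes.

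The authors gave every peak a signal, their own value for its strength, and a summit, its highest point. The optimal list is the authors' set of reproducible peaks, and the pooled list holds all candidates from both replicates together. The authors label the pooled list as peaks and background, so a candidate in it need not be a bound site. A gene was given a peak when the summit lay in its promoter window, which reached 1000 bp upstream and 500 bp downstream around each annotated transcript start (5′ end). A candidate outside the optimal list is called weak. All coordinates are on build ce11 and count from 1.

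Optimal summits lay in the windows of 4 proteasome genes: rpn-11 and rpn-3 of the lid, pas-5 of the alpha ring and pbs-1 of the beta ring. The genome sequence at the summits of rpn-11, rpn-3 and pbs-1 is shown because these are the optimal peaks of the complex in intergenic promoter sequence. Each line gives the summit base and 50 bases on either side, from the RefSeq genome of WBcel235, 5′ to 3′ in the direction of the gene's transcription, with the summit base in capitals. They are II:4044518-4044618 on the minus strand for rpn-11, III:8447062-8447162 on the plus strand for rpn-3 and IV:1709899-1709999 on the minus strand for pbs-1.
rpn-11: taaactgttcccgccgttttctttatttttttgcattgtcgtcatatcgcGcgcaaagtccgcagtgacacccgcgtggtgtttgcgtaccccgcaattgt
rpn-3: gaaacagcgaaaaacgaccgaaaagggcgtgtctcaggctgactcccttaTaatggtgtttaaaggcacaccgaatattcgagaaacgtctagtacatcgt
pbs-1: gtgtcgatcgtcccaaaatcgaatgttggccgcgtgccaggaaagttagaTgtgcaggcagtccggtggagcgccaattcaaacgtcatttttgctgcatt

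Of the 33 proteasome genes, 4 (12.1%) had an optimal summit in the promoter window, against 5.69% of all protein-coding genes. The core particle had 2 of 14 genes (14.3%) and the regulatory particle 2 of 19 (10.5%). By ring and layer, the count was 1 of 7 alpha genes, 1 of 7 beta genes, 0 of 6 ATPase genes, 0 of 4 other base genes and 2 of 9 lid genes. Each of the 4 genes had its own peak, so no optimal peak served a pair of proteasome genes. These counts were not tested, since the genes were chosen with earlier results of these data known.

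Candidates of any rank were common at proteasome genes. The pooled list put at least 1 summit in the windows of 26 of 33 (78.8%), against 40.1% of all protein-coding genes. The share was 78.6% in the core particle (11 of 14) and 78.9% in the regulatory particle (15 of 19). Among genes with a candidate, the strongest was optimal for 15.4% of proteasome genes and for 14.2% of all protein-coding genes, shares close to each other. The median signal of the strongest candidate was 41.4 for proteasome genes and 39.4 for all protein-coding genes. The proteasome genes thus stood above all protein-coding genes in how many had a candidate, and near them in how strong the candidates were. Since the pooled list includes background, these shares count candidates and not established binding sites.

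**Figure D1:**
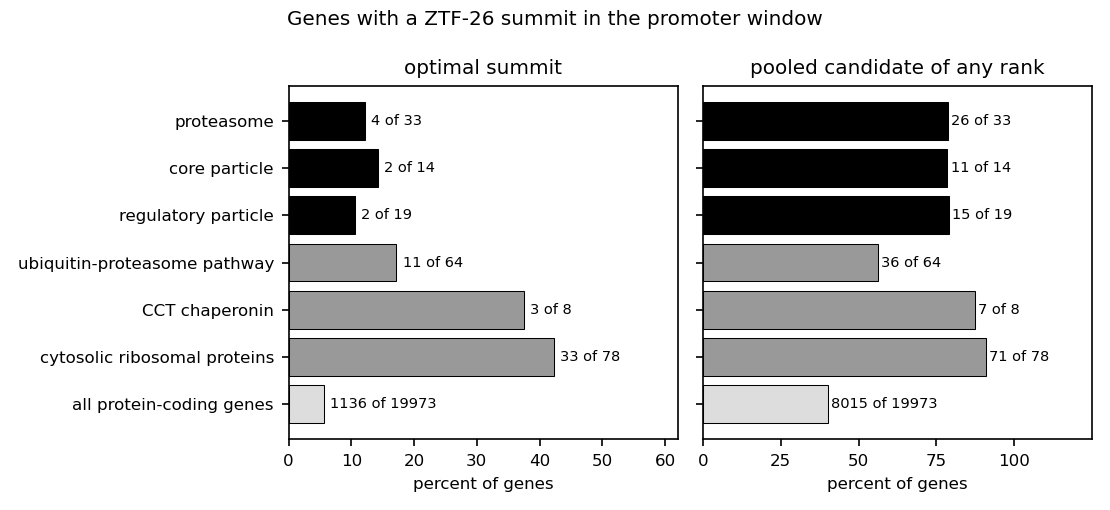
Horizontal bars give the percent of genes with an optimal summit (left) and with a pooled candidate of any rank (right) in the promoter window, for the proteasome and its particles (black), other gene lists (grey) and all protein-coding genes (light), with counts beside the bars. The proteasome bar stands at 12.1% on the left and 78.8% on the right, against 5.69% and 40.1% of all protein-coding genes.

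The strongest summit of the complex belonged to rpn-11 (WBGene00004467), which encodes the deubiquitinase of the lid. Its peak at II:4044348-4044787 had a pooled signal of 190.0, rank 394 of 28233, with the summit 22 bp upstream of the 5′ end in intergenic sequence. Signal at the same peak was 128 in replicate 3 and 60.6 in replicate 4, at ranks 357 and 625 of the replicates' own lists. The replicates placed the summit on either side of the 5′ end, 37 bp upstream in replicate 3 and 8 bp downstream in replicate 4. No other gene had this summit in its window. The upstream neighbour, K07D4.2, lies on the same strand and ends 224 bp away.

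The lid gene rpn-3 (WBGene00004460), for a structural subunit of the PCI family, was close behind. Its peak at III:8447038-8447230 had a pooled signal of 183 (rank 432), with 108 in replicate 3 and 69.6 in replicate 4 (ranks 558 and 442). In replicate 4 rpn-3 stood above rpn-11 and in replicate 3 below it, so the order of the pair was not the same in the replicates. The summit lay 241 bp upstream of rpn-3, in the 443 bp between it and hsp-110, a gene for a chaperone of the HSP70 family that is transcribed the other way. It was nearer to hsp-110, at 203 bp from its 5′ end, and lay 17 bp upstream of the annotated non-coding RNA gene C30C11.14. Where each peak was given only to the gene with the nearest 5′ end, this one went to hsp-110, which left rpn-11 alone in the regulatory particle.

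In the core particle, pbs-1 (WBGene00003947), a gene for a catalytic beta subunit, had an optimal peak at IV:1709729-1710168. Its pooled signal was 121 (rank 1116), with 85.7 in replicate 3 and 38.1 in replicate 4. The summit lay 204 bp upstream, in the 519 bp shared with the divergent gene K08D12.3, whose 5′ end was 316 bp away. At rank 1948 in replicate 4, the peak fell just outside the 1929 strongest of that replicate, the length of the optimal list. A further optimal peak, of signal 99.3, had its summit 1589 bp upstream of pbs-1, outside its window. A weak candidate of signal 81.0 lay 1182 bp downstream.

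The alpha gene pas-5 (WBGene00003926) had, among these 4 genes, the summit farthest from its gene, 921 bp upstream and inside F25H2.15, a gene for a small nucleolar RNA (snoRNA), a class of RNA that guides the modification of other RNAs. The peak spanned I:10565209-10565648. Its pooled signal was 133 (rank 941), with 73.6 in replicate 3 and 60.3 in replicate 4. A stronger optimal peak stood beside it, with a signal of 189.5, and 114.7 in replicate 3 and 74.4 in replicate 4. The summit of that peak lay 37 bp upstream of the snoRNA gene and 1121 bp upstream of pas-5, outside the window of pas-5. The summit counted for pas-5 was 163 bp into the snoRNA gene. With the window cut to 500 bp upstream, or with summits inside non-coding RNA genes left out (chosen after seeing the data), pas-5 was lost and the core particle kept pbs-1 alone.

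**Figure D2:**
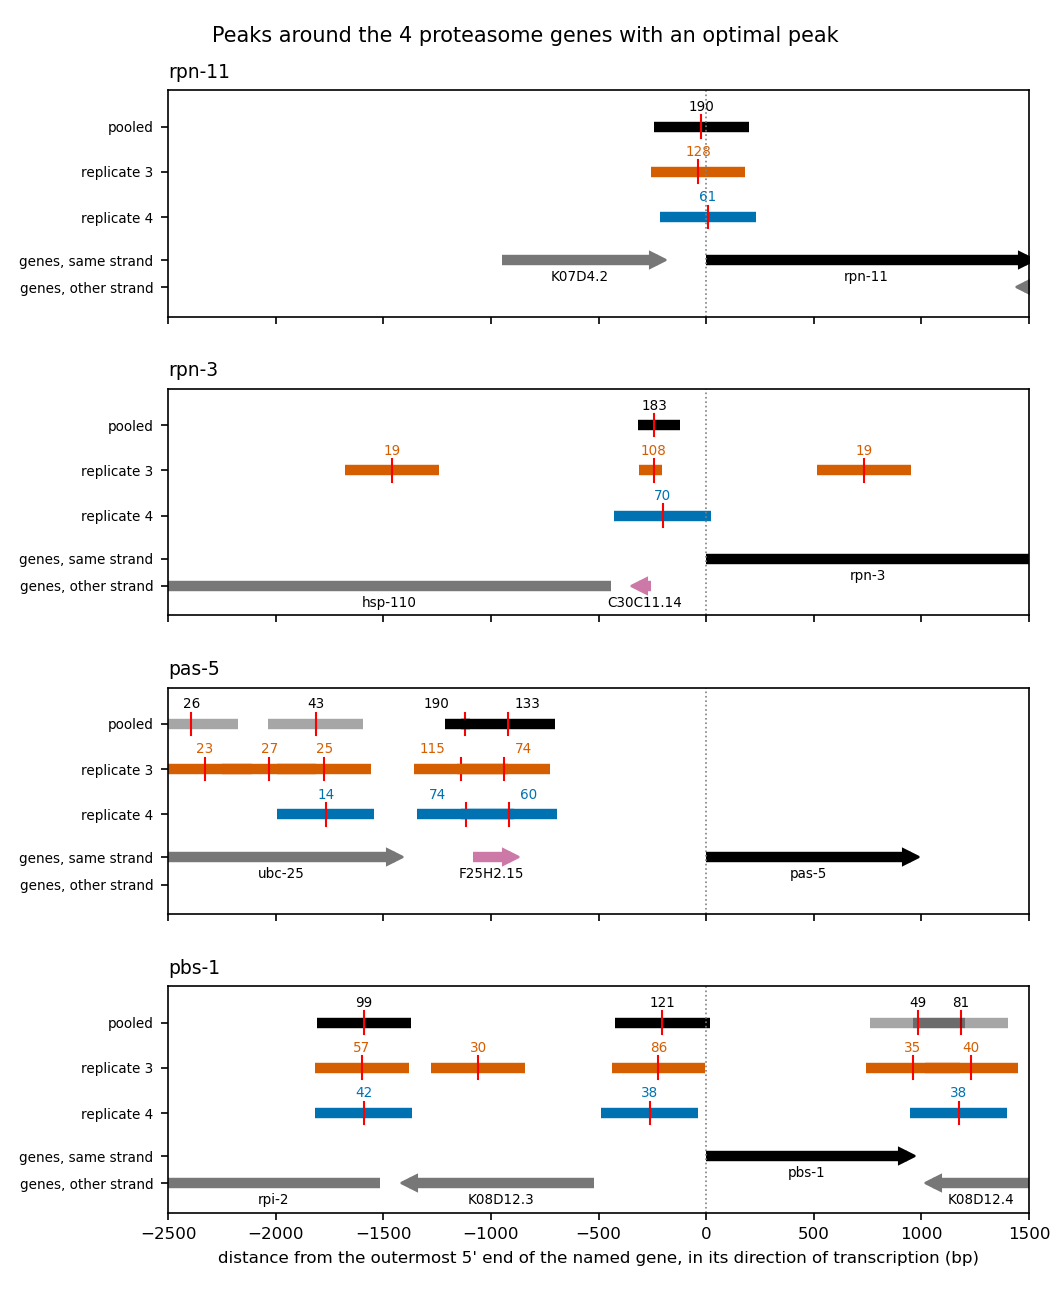
Peaks around rpn-11, rpn-3, pas-5 and pbs-1, each drawn with the outermost 5′ end of the named gene at 0 on the horizontal axis (bp), with peaks of the pooled list (optimal black, weak grey) and of replicates 3 and 4 as bars with the summit in red and the signal above. Genes are drawn by strand below, the named gene in black, other protein-coding genes in grey and non-coding RNA genes in pink. The rpn-11 summit sits 22 bp upstream of the gene, and that of pas-5 sits 921 bp upstream in the snoRNA gene F25H2.15.

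All 4 optimal peaks appeared in both replicates, as did 1918 of the 1929 in the optimal list. That list is the set of reproducible peaks, so this adds no separate support for the 4 genes. Their 4 signals were higher in replicate 3. Across the 1918 optimal peaks found in both replicates, replicate 3 was the higher by a median factor of 1.72, with a spread of 1.46-fold (SD of the log2 ratio across peaks). The ratios were 2.11 for rpn-11, 1.55 for rpn-3, 1.22 for pas-5 and 2.25 for pbs-1, all within 1.46-fold of that median. Replicate 3 ordered the genes rpn-11, rpn-3, pbs-1, pas-5, and replicate 4 ordered them rpn-3, rpn-11, pas-5, pbs-1. The pairs rpn-11 with rpn-3 and pas-5 with pbs-1 therefore had no fixed order. The lid pair stood above the core pair in replicate 3, whereas in replicate 4 rpn-11 and pas-5 were nearly equal at 60.6 and 60.3. Among the 1929 strongest peaks of replicate 3 alone, a summit lay in the windows of the same 4 proteasome genes, against 5.75% of all protein-coding genes. Among the 1929 strongest of replicate 4 alone, 3 proteasome genes had one, against 5.45% of all protein-coding genes, and pbs-1 was the gene lost.

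**Figure D3:**
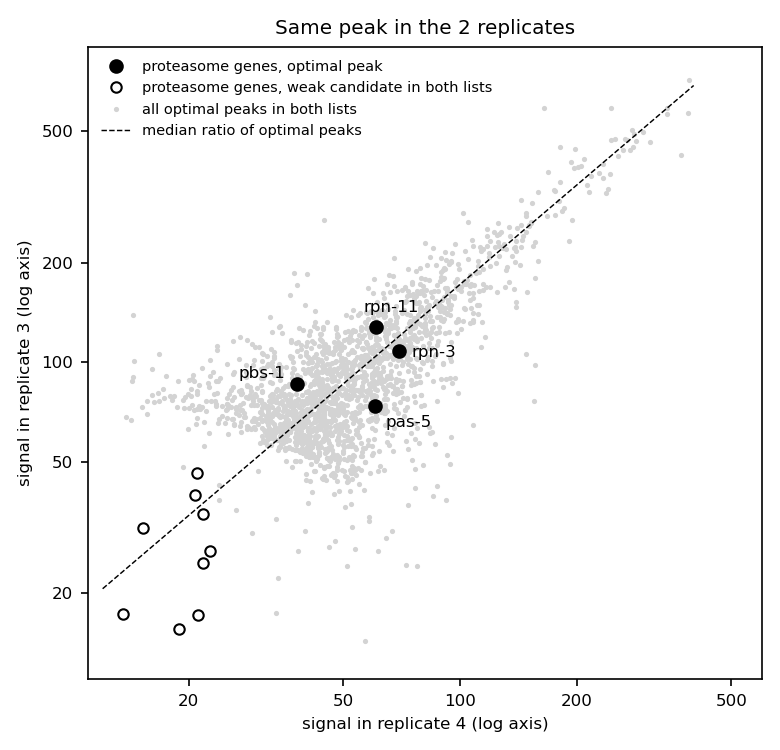
Signal of the same peak in replicate 4 (horizontal, log axis) and replicate 3 (vertical, log axis), for the optimal peaks of proteasome genes (filled black), their weak candidates found in both replicate lists (open) and all optimal peaks in both lists (grey), with the median ratio of 1.72 as a dashed line. The 4 filled points lie inside the cloud of optimal peaks, pbs-1 above the line at a ratio of 2.25 and pas-5 below it at 1.22.

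The weakest optimal peak of the complex was that of pbs-1 at 121, the lowest signal in the optimal list was 90.2, and the strongest weak candidate of a proteasome gene was that of rpn-2 at 69.2. Over all protein-coding genes the weak candidates reached 90.1, with no gap to the optimal list. The 22 proteasome genes with a weak candidate ran from rank 3230 for rpn-2 to rank 22443 for rpn-13. The −log10 q-value fell along these ranks from 2.35 at rpn-2 to 1.88 at rpn-5, 1.28 at rpt-6 and 0.0599 at rpn-13. The median signal of the 22 was 38.0, against 35.8 for all protein-coding genes with a weak candidate.

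The strongest weak candidates lay at base and lid genes. At rpn-2, which encodes the large scaffold of the base, the peak at III:6198592-6199031 had a signal of 69.2 with 46.2 in replicate 3 and 21.1 in replicate 4, and a −log10 q-value of 2.35 against 3.63 for every optimal peak. Its summit lay 372 bp upstream of rpn-2 and 398 bp upstream of the divergent gene C23G10.7. At the lid gene rpn-5 (II:4698234-4698673) the signal was 63.5, with 39.6 in replicate 3 and 20.7 in replicate 4. That summit lay 27 bp upstream of rpn-5 and 267 bp upstream of scc-1, which encodes a cohesin subunit. Replicate 3 was thus higher than replicate 4 at both genes, as at the optimal peaks. At rpn-2 the window of the same length around the summit (III:6198762-6198862, plus strand) held the word CGCCAGC on the other strand. At the ATPase gene rpt-6 (III:12370204-12370304, plus strand) the window held TATCAT, a core form of the SKN-1 site. TATCAT was at 1 of the 22 weak proteasome summits, against 5.66% of weak promoter summits of all protein-coding genes. Both are shown with the word in capitals, and rpn-5 (II:4698404-4698504, minus strand) with the summit base in capitals for comparison.
rpn-2: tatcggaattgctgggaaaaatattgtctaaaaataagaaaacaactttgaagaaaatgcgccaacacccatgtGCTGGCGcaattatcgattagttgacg
rpt-6: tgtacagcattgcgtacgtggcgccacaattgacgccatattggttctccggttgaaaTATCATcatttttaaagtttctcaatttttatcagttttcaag
rpn-5: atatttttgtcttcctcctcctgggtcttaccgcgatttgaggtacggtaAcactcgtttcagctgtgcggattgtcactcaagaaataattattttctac

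The ATPase genes had no optimal summit, and rpt-6 had the highest signal among them. Its peak at III:12370034-12370473 had a signal of 56.8 with 26.9 in replicate 3 and 22.7 in replicate 4. The summit lay 202 bp upstream and in no other gene's window. With the window widened to 2000 bp upstream, a stronger candidate of signal 84.8 came in, still below the optimal list and above that of rpn-2. The divergent gene his-72 begins 1405 bp upstream of rpt-6, so that candidate lay nearer to the 5′ end of his-72. The wider window also raised other genes, such as rpn-8 to 59.5 and rpn-1 to 49.0. The ATPase genes rpt-4 and rpt-2 had a signal of 42.5 each, and rpt-3 had 31.8. All 3 peaks were found in replicate 3, and replicate 4 listed no overlapping peak. The rpt-2 summit lay in an annotated non-coding RNA gene, F29G9.10, between rpt-2 and aps-1, which encodes an adaptor protein subunit. That of rpt-4 lay in an intron of rpt-4, 45 bp upstream of an inner 5′ end. The ATPase genes rpt-1 and rpt-5 had no pooled candidate.

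Among the other base subunits, the scaffold gene rpn-1 had a signal of 32.6, and the ubiquitin receptor genes rpn-10 and rpn-13 had 31.0 and 25.9. The rpn-1 summit lay in its own coding exon and that of rpn-10 in a coding exon of mrpl-9, a gene for a mitochondrial ribosomal protein. The rpn-13 summit was intergenic, 259 bp upstream. In the lid, rpn-9 had a signal of 50.8 (II:11239016-11239455), with 24.7 in replicate 3 and 21.8 in replicate 4, at a summit 317 bp upstream and 361 bp from the divergent gene T06D8.9. The other lid genes with a weak candidate were rpn-6.1 at 41.5, rpn-8 at 40.3 and rpn-7 at 30.3. The subunit encoded by rpn-8 pairs with that of rpn-11 in the lid. The summits of this trio lay in coding exons, of F57B9.1, of mrps-6 and of rpn-7 itself.

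In the beta ring, pbs-6 had the highest weak signal, 49.97 at III:8243803-8244242. It was 40.6 in replicate 3, and replicate 4 listed no peak there. The summit lay 69 bp into pbs-6, in a coding exon, and also in the windows of cids-1 and C02F5.12. The catalytic subunit gene pbs-5 had 48.13, with 34.8 in replicate 3 and 21.8 in replicate 4, at a summit 5 bp upstream (I:14720262-14720701). The remaining beta genes were lower, with 31.5 for pbs-7, 31.1 for pbs-3 and 28.0 for the catalytic subunit gene pbs-2. In the alpha ring the weak signals were 41.4 for pas-1, 35.7 for pas-4, 35.6 for pas-3 and 29.9 for pas-7. At pas-4 and pbs-7 replicate 4 was the higher replicate, with ratios of replicate 3 to replicate 4 of 0.812 and 0.828. The other proteasome genes whose peak was found in both replicates had ratios above 1.

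**Figure D4:**
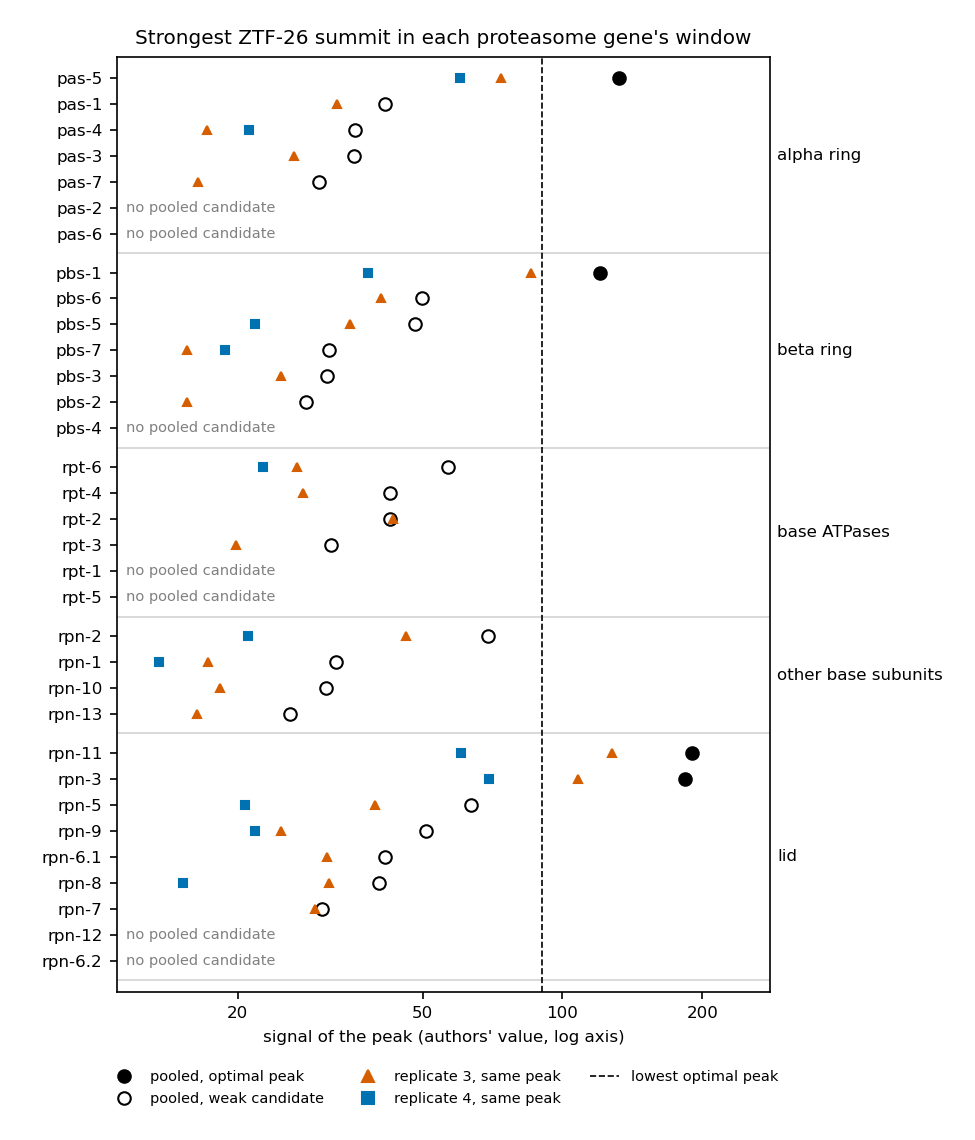
Signal of the strongest summit in the promoter window of each of the 33 proteasome genes (log axis), in the pooled list (circles, filled where optimal) and at the same peak in replicate 3 (triangles) and replicate 4 (squares), grouped by ring and layer. The filled circles at 121 to 190.0 stand right of the dashed line at 90.2, the lowest optimal signal, and the highest open circle is at 69.2.

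The weak candidates rested on replicate 3 more than on replicate 4. All 22 weak candidates of proteasome genes overlapped a peak of replicate 3, against 83.0% of the weak candidates of all protein-coding genes. A peak of replicate 4 overlapped 9 of the 22 (40.9%), against 58.5% for all protein-coding genes. Counting optimal and weak together, 13 of 33 proteasome genes (39.4%) had their strongest candidate in both replicate lists, against 22.0% of all protein-coding genes. In the replicates' own lists, whatever the pooled list held, 29 of 33 proteasome genes had a candidate in replicate 3, against 41.8% of all protein-coding genes, and 18 of 33 had one in replicate 4, against 32.6%. The list of replicate 3 is longer, with 30000 peaks against 20373, and the part of that length in these counts was not tested.

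No pooled candidate lay in the windows of 7 proteasome genes: the alpha genes pas-2 and pas-6, the beta gene pbs-4, the ATPase genes rpt-1 and rpt-5, and the lid genes rpn-12 and rpn-6.2. Of these, rpt-1 had a candidate of 18.2 in the list of replicate 3 and 14.4 in that of replicate 4. Replicate 3 alone listed one of 16.3 at rpt-5 and one of 14.9 at rpn-12. The genes pas-2, pas-6, pbs-4 and rpn-6.2 had none in any of the 3 lists. The upstream neighbour of rpn-12 is rad-23, transcribed the other way from 394 bp away and encoding a factor that brings ubiquitin-tagged proteins to the proteasome. It had no pooled candidate either.

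The nearest optimal summit was more than 10000 bp from a 5′ end for 22 of the 33 proteasome genes (66.7%), against 73.7% of all protein-coding genes. The median distance was 16827 bp for the proteasome genes and 25996 bp for all protein-coding genes. Outside the 4 genes with an optimal summit, pbs-2 came closest at 1319 bp, followed by rpt-1 at 2094 bp, rpn-8 at 2929 bp, pas-6 at 2939 bp, rpn-13 at 2993 bp and rpn-5 at 3210 bp. Of these, pbs-2 had a pooled candidate of 28.0 in its own window and pas-6 had none.

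The signals of core and regulatory particle genes overlapped over most of their range. Over genes with a candidate, the median was 35.7 in the core particle and 42.5 in the regulatory particle, against 39.4 for all protein-coding genes. This order did not hold in replicate 4 alone, where the medians were 21.5 over 6 core genes and 20.9 over 12 regulatory genes. In replicate 3 alone they were 28.9 over 11 core genes and 30.3 over 18 regulatory genes. The pooled medians covered 11 and 15 genes. Each replicate median used that list's own strongest summits, so the genes were not the same and the medians do not compare like with like. The spread inside each particle was far wider, from 28.0 to 133 in the core and from 25.9 to 190.0 in the regulatory particle.

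Over all strongest summits, those of the core particle lay nearer to the 5′ end, a difference that was not tested. It came from weak candidates, which were 9 of the 11 core summits. The optimal peaks did not share it, at 204 bp (pbs-1) and 921 bp (pas-5) in the core. In the regulatory particle they lay at 22 bp (rpn-11) and 241 bp (rpn-3). The median distance was 74 bp for the 11 core genes with a candidate and 259 bp for the 15 of the regulatory particle, against 284 bp for all protein-coding genes. Within 250 bp of the 5′ end lay 9 of 11 core summits (81.8%) and 7 of 15 regulatory summits (46.7%), or 16 of 26 in the complex (61.5%), against 45.1% for all protein-coding genes. In the beta ring all 6 summits were within that distance. The pas-5 and pas-7 summits, 921 and 927 bp upstream, were the core exceptions. Of the 26 strongest summits, 18 lay upstream of the 5′ end (69.2%) and 8 downstream, and 69.4% were upstream for all protein-coding genes.

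**Figure D5:**
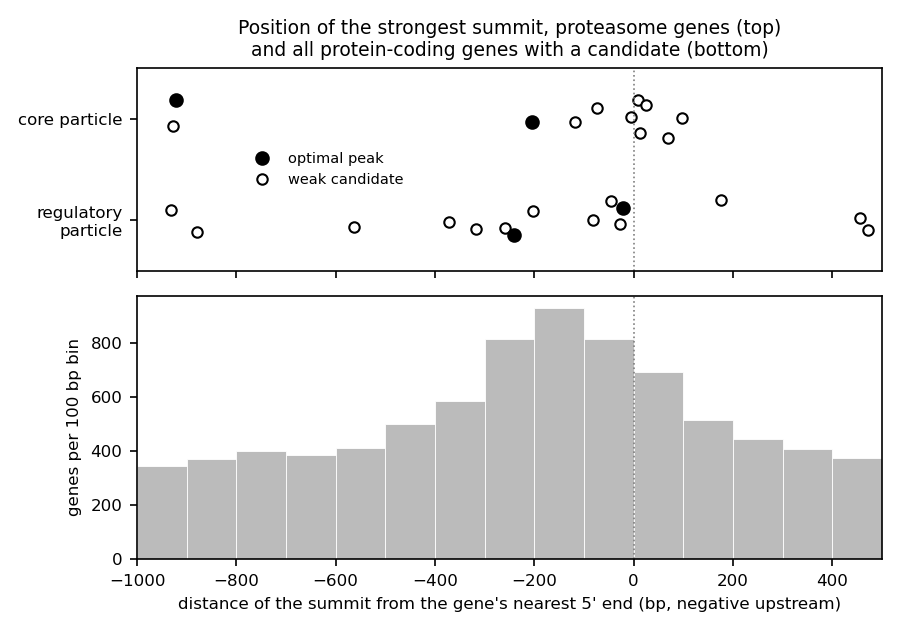
Distance of the strongest summit from the nearest 5′ end of the gene (bp, negative upstream), above for core and regulatory particle genes, with optimal peaks filled and weak candidates open and a random vertical shift, and below as the number of protein-coding genes with a candidate per 100 bp (7997 of 8015 lie in the range drawn). Most weak core summits gather at the start of the gene, and regulatory summits are more widely spread (medians over all candidates 74 and 259 bp). The optimal core summits lie at 204 and 921 bp, and the optimal regulatory ones at 22 and 241 bp.

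Of the 4 optimal summits, 3 were intergenic and 1 lay in a non-coding RNA gene. Over all protein-coding genes, 61.1% of optimal strongest summits were intergenic and 13.9% lay in a non-coding RNA gene. Of the 22 weak summits, 11 lay in a coding exon, 7 in intergenic sequence, 2 in introns, 1 in a 3′ untranslated region and 1 in a non-coding RNA gene. Weak strongest summits of all protein-coding genes were intergenic for 42.2% and in introns for 19.9%. They lay in a 3′ untranslated region for 2.59% and in a non-coding RNA gene for 3.31%. Of the 11 in coding exons, 7 were in the gene's own exon and 4 in that of a neighbour. For all protein-coding genes, 6.16% of optimal and 26.5% of weak strongest summits lay in a coding exon. The share was 50% for the weak proteasome candidates, and the difference was not tested. The GC content of the summit base and its 50 neighbours on either side had a median of 47.5% at the optimal summits and 37.6% at the weak ones, against 47.5% and 40.6% over the optimal and weak promoter summits of all protein-coding genes.

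Proteasome genes often sit back to back with a neighbour. Within 1000 bp upstream of 20 of the 33 (60.6%) began a divergent protein-coding gene, against 17.2% of all protein-coding genes. A neighbour on the same strand within 500 bp, the layout of many worm operons, preceded 8 of 33 (24.2%), against 17.7% of all protein-coding genes. Of the 26 strongest summits, 15 (57.7%) also lay in the window of another protein-coding gene, against 28.0% for all protein-coding genes. At those 15 a summit could not be assigned to the proteasome gene rather than to its neighbour. Examples are rpb-3, which encodes an RNA polymerase II subunit and shares the pas-4 summit, and eif-6, which encodes a translation initiation factor and shares that of pbs-2.

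The proteasome genes lie on the autosomes, with none on X. Each of chromosomes I, II, III and IV held 1 gene with an optimal summit, out of 10, 7, 8 and 3 proteasome genes. Across all protein-coding genes of those chromosomes, 6.12%, 5.33%, 8.26% and 5.06% had one. Chromosome V held 5 proteasome genes, of which none had an optimal summit and 2, pas-1 and rpt-2, had a weak candidate. Across all protein-coding genes, 4.00% had an optimal summit on chromosome V and 7.03% on X. With so few proteasome genes on each chromosome, no difference between chromosomes was tested.

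None of the 8 sequence words searched lay at the proteasome's 4 optimal summits. The search covered both strands of the summit base and the 50 bases on either side. The first 6 words come from earlier results of these data, and each was held by more of the optimal than of the weak summits in protein-coding promoter windows. Because of that origin, their higher shares at optimal summits are not independent of how the words were chosen. The word ACGCAGA was held by 8.14% of such optimal summits and 2.86% of weak ones. The shares were 8.34% and 2.79% for CTGCGTC, which on the other strand overlaps the word before it. They were 9.05% and 2.65% for GAGACGC, which overlaps the others as well. The repeat CTCTCTC was held by 10.1% of optimal and 3.84% of weak summits, and the palindrome CACGTG by 6.92% and 2.94%. At least 1 of the 6 was held by 31.3% of optimal summits (308 of 983) and 11.0% of weak ones (1082 of 9878). Of the proteasome genes, 0 of 4 optimal and 1 of 22 weak summits held one, the CGCCAGC of rpn-2, which is in 5.70% of optimal and 0.769% of weak promoter summits. The remaining pair are core forms of the SKN-1 site. TGTCAT was at the weak summits of rpt-2 and rpn-1 and in 5.80% of optimal and 5.17% of weak promoter summits. The other form, TATCAT, was at that of rpt-6 and in 6.21% of optimal and 5.66% of weak ones. A missing word says only that these letters are not in this stretch.

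The wider ubiquitin-proteasome pathway had 11 of 64 genes with an optimal summit (17.2%), against 5.69% of all protein-coding genes. The list held ubiquitin, conjugating and deubiquitinating enzymes, cullins, shuttle factors and regulators outside the 33. That list also holds dss-1, which encodes a small lid subunit under another name. A candidate of any rank lay in the windows of 36 of the 64 (56.25%), against 40.1% of all protein-coding genes and 78.8% of proteasome genes. The highest was cdc-48.1, an ATPase that pulls ubiquitin-tagged proteins out of complexes, with a pooled signal of 596, and 392 in replicate 3 and 205 in replicate 4. Its summit lay 152 bp upstream, and the snoRNA gene C06A1.9 shared it. Among ubiquitin-conjugating enzyme genes, the signal was 193 at let-70, 168 at ubc-6, 145 at ubc-25, 119 at ubc-3 and 100.5 at ubc-9, the last of which conjugates SUMO. The gene ubc-25 is the upstream neighbour of pas-5 and ends 1446 bp from it. The polyubiquitin gene ubq-1 had 106, the shuttle factor gene ubql-1 had 176 and aip-1, which encodes a proteasome-associated stress protein, had 113. The genes with an optimal summit thus included some enzymes that attach ubiquitin and some factors that deliver tagged proteins. The other conjugating enzyme genes had a weak candidate or none, with the highest signal 63.6 at ubc-7. The shuttle factor gene rad-23 had none. The cullin genes and the usp- and ubh- deubiquitinating enzyme genes of this list had no optimal summit, against 5.69% of all protein-coding genes. Their highest signals were 66.8 at cul-3 and 71.8 at usp-4. The deubiquitinase gene rpn-11 is among the 33 and so outside this list, and it had an optimal summit.

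Some genes that control proteasome levels also had an optimal summit. The signal was 157 at skn-1, in an intron 572 bp upstream of one of its 5′ ends, and 177 at wdr-23, which encodes a repressor of SKN-1, with the summit 41 bp upstream. In the worm ddi-1 and png-1 encode the protease and the glycanase that process the SKN-1 form which drives proteasome genes. Their strongest candidates were weak, at 32.3 and 30.0. Of the other regulators in the list, sel-11 had a weak candidate of 34.4 and sel-1 had none. The ubiquitin-activating enzyme gene uba-1 had 88.2 and ubq-2 had 84.9, both just below the lowest optimal signal of 90.2. No pooled candidate lay in the windows of dss-1 and psmd-9, genes for the small lid subunit and, as known in mammals, for an assembly chaperone.

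Other large complexes had optimal summits at a higher share of their genes. The counts were 3 of 8 (37.5%) for the CCT chaperonin, which folds actin and tubulin, and 33 of 78 (42.3%) for the cytosolic ribosomal proteins. Those 33 genes had 31 distinct optimal peaks, since rps-14 shared its peak with rpl-36 and rps-30 with rpl-39. The share was 5.69% for all protein-coding genes. The highest signals there were 481 at cct-8 and 171 at cct-1, and 1104 at rpl-3 and 769 at rpl-20. The highest proteasome signal, 190.0 at rpn-11, was above that of cct-1 and below those of cct-8, rpl-3 and rpl-20. The differences in share between the lists were not tested.

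Over the whole series the optimal list held 1929 peaks of signal 90.2 to 1104, with a median of 131, so that rpn-11, rpn-3 and pas-5 lay above that median and pbs-1 below it. The pooled list held 28233 candidates. Library depth is unknown because peak lists carry no read counts, and the scale of the signal is not given in the sources used here. With 2 replicates and lists that pool them, no error could be put on a pooled signal beyond the values of the replicates.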

How the data were processed

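ZTF-26 ChIP-seq peaks came from 2 biological replicates of young adult worms. The authors called peaks from each replicate and from both together (pooled list), and made the optimal list of reproducible peaks from these, per the deposited file list. In these deposited lists signal is the authors' value per peak, beside a −log10 q-value and a summit position. The optimal list held exactly the 1929 strongest pooled peaks. The aligner, peak caller and reproducibility threshold are not given in the sources used here, and lists on ce10 were not used here.

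Genes came from Ensembl release 115 (WBcel235, equal to ce11). The strongest summit in a gene's promoter window was taken, and its replicate value was that of the overlapping peak (at least 1 bp) with the nearest summit. Python 3.11.15 with pandas 2.3.3 was used. The assignment was tested on simulated data. The members and lists were chosen with earlier results of these data known, so counts are set beside all protein-coding genes without a test. All 33 members are named, and full values go to those with an optimal summit and the next 6. Pathway genes outside this rule (ddi-1, png-1, uba-1, ubq-2, dss-1, psmd-9, rad-23, ubc-7, cul-3, usp-4, sel-1, sel-11) were chosen after their values were seen. Alternatives were other windows, gene assignments, thresholds and overlaps, each replicate left out, and non-coding RNA summits left out.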

Additional observations from a re-analysis of the deposited data

How the results depend on the processing

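The count of 4 proteasome genes with an optimal summit was 3 or 4 under every alternative tried, with 3 for the window of 500 bp upstream, the nearest 5′ end only, the 965 strongest optimal peaks, replicate 4 alone and non-coding RNA summits left out (chosen after seeing the data). The core particle's 2 genes became 1 with the window of 500 bp upstream (pbs-1 kept), the stronger 965 optimal peaks (pas-5 kept) and non-coding RNA summits left out (pbs-1 kept), and ranged from 1 to 2 when a replicate was left out, with pbs-1 lost without replicate 3. The regulatory particle's 2 genes became 1 with the nearest 5′ end only (rpn-11 kept). Over these alternatives the share of all protein-coding genes with an optimal summit moved too. It ran from 3.13% for the 965 strongest peaks to 7.62% for the window of 2000 bp upstream. Proteasome genes with any candidate ranged from 24 to 28 over windows and assignments, against 33.6% to 49.2% of all protein-coding genes. They numbered 18 without replicate 3, against 32.6% of all protein-coding genes, and 29 without replicate 4, against 41.8%. Leaving out a replicate gave core medians of 21.5 to 28.9 and regulatory medians of 20.9 to 30.3, on the scale of 1 library rather than of the pool. Each covered only the genes with a candidate in the replicate kept. Proteasome genes whose candidate was found in both replicates numbered 13 with at least 50% of the peak shared and 11 with summits within 100 bp. Over all 19973 protein-coding genes these numbers were 4024 and 3235. Depth is unknown, so a window without a candidate does not show that ZTF-26 was absent there. No paired analysis was possible because the study has 1 group and no test between groups.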
